A study of Mus musculus with 12 samples.

Results

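The constitutive proteasome genes are the genes for the standard subunits of the 20S core and of the 19S regulatory particle, and for the chaperones that help to build that particle. They were chosen by name, as the symbols Psma1 to Psma7, Psmb1 to Psmb7, Psmc1 to Psmc6 and Psmd1 to Psmd14, which gave 34 of the 48440 genes in the table. Bulk RNA-seq was done on 12 libraries of mouse macrophages that had been derived from bone marrow in culture. The 6 groups of 2 libraries were CKO with interferon-γ (IFN-γ), WT with IFN-γ, CKO with IL-4, WT with IL-4, untreated CKO and untreated WT, with IFN-γ at 100 U/mL or IL-4 at 20 ng/mL for 24 h. The labels do not spell out CKO, the promoter behind any Cre, the age or the strain of the mice, and the title of the series names the transcription factor IRF8. Nor do they state if the 2 libraries within a group are from separate mice, so the p-values rest on library-to-library spread that could be technical.

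With IFN-γ most core genes rose, and in the main fit few genes of the regulatory particle did. In CKO libraries 13 of the 14 core genes rose and in WT libraries 9 did, led by the alpha subunit gene Psma5 at 2.44-fold and 2.02-fold, while 2 of the 20 genes of the regulatory particle and its chaperones rose in CKO libraries and none rose in WT libraries. Of all genes tested, 14.7% rose in CKO and 12.4% in WT. The core calls of Psma3, Psma4, Psma5, Psma7 and Psmb2 held in both genotypes when each library compared was left out in turn. So did those of Psma2 in CKO and of Psmb3 and Psmb7 in WT. Each other core call was lost in at least 1 such fit. In a fit with a block for the library number, Psmc4, Psmc5, Psmd2, Psmd3, Psmd4 and Psmd7 of the regulatory particle rose too in CKO libraries. Scaled by library totals alone, 7 of the 34 genes rose in each genotype, against 10.9% of all genes in CKO and 10.7% in WT. The test of a genotype difference in the IFN-γ response passed for 0 of the 34 genes, where 2.72% of all genes passed. IL-4 raised 6 of the 34 genes in CKO libraries, where it raised 11.2% of all genes, and 2 in WT libraries, where it raised 6.64%. None of the 6 CKO calls passed in a fit of only the groups compared. Both WT calls were lost when any 1 of the libraries compared was left out. Untreated CKO libraries had lower levels of 5 of the 34 than untreated WT libraries (9.37% of all genes were lower), and these 5 calls were lost in 3 of the 4 fits without 1 of the libraries compared. The 3 catalytic core genes Psmb5, Psmb6 and Psmb7 were set against the inducible subunits that can take their places, Psmb8, Psmb9 and Psmb10, which are not among the 34.

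The proteasome is the protease that breaks down proteins tagged with ubiquitin. Its 20S core is a barrel of stacked rings, with outer rings of alpha subunits that gate the channel and inner rings of beta subunits, of which Psmb5, Psmb6 and Psmb7 encode those with the active sites. The 19S particle caps the barrel, binds ubiquitin chains and unfolds substrates with a ring of ATPases. IFN-γ, a cytokine of T cells and natural killer cells, is known to induce the catalytic subunits of the immunoproteasome and the PA28 cap, which alter the peptides made for presentation on MHC class I, and IL-4 is a cytokine of allergy and wound repair that drives macrophages to an alternative state.

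Library totals ran from 21287725 to 32717379 counts, and every one of the 34 genes had at least 376 counts in each library. Irf8 had 1204 and 1173 CPM (counts scaled by library size) in CKO libraries with IFN-γ against 513 and 502 in WT libraries with IFN-γ, and 293 and 248 CPM in untreated CKO libraries against 90.9 and 91.2 in untreated WT libraries. The gene-level count thus showed no loss of Irf8 RNA in the libraries labelled CKO and cannot show the loss of an exon, so CKO is used here as the label only. Lyz2, the lysozyme gene of macrophages, separated the labels, with 12.6 to 28.0 CPM in CKO libraries and at least 5845 CPM in WT libraries. The IFN-γ target Gbp2 was at 5522 CPM or more in all 4 IFN-γ libraries and at 17.3 CPM or less in the other 8, and the IL-4 target Arg1 was at 1207 CPM or more in all 4 IL-4 libraries and at 29.7 CPM or less elsewhere. Untreated CKO library 1 stood apart, with 1.52% mitochondrial counts against 2.12% to 3.25% in the other 11 libraries and with 1.28% of counts on the ribosomal-RNA-like gene Gm42418. That gene also took 1.05% in untreated WT library 1 and 0.753% in WT IFN-γ library 1, against 0.0717% to 0.174% in the others. All 8 macrophage markers were detected. With Lyz2 among them, they summed to 4579.6 to 4772 CPM in CKO and 9018 to 9059 CPM in WT libraries with IFN-γ. With IL-4 the sums were 3484 to 4121 CPM in CKO and 9628 to 10943 CPM in WT libraries. In untreated libraries they were 3928 to 4310.3 CPM for CKO and 13944 to 14745 CPM for WT. Lyz2 alone gave at least 5845 CPM of each WT sum, so these sums do not compare the other macrophage markers. Taken singly, 5 of the 8 markers were higher and 2 lower in CKO than in WT libraries with IFN-γ (10.4% and 8.01% of all genes). Untreated, 3 were higher and 2 lower (8.6% and 9.37%), and with IL-4 0 were higher and 3 lower (2.96% of all genes in either direction). Summed levels of 10 neutrophil and precursor markers were 338 to 348 CPM in CKO and 45.1 to 57.3 CPM in WT libraries with IFN-γ, 148 to 161 CPM in CKO and 29.3 to 37.1 CPM in WT libraries with IL-4, and 149 to 272 CPM in untreated CKO and 36.1 to 42.1 CPM in untreated WT libraries. The part of these cells in the results was not tested, and in bulk RNA fewer cells of a type and less RNA per cell cannot be told apart. The T cell markers Cd3e and Cd3g were at 0 in all 12 libraries, and the 5 T cell markers summed to at most 0.558 CPM. The 6 dendritic cell markers summed to 7.58 to 9.10 CPM in CKO and 46.7 to 55.2 CPM in WT libraries with IFN-γ, and to at most 3.78 CPM in every other library.

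The 34 genes lie on 15 chromosomes, with at most 6 on one of them (chromosome 11). Promoter windows of RefSeq (GRCm38.p6, 250 bases before to 50 after a start) existed for 28 of the 34 genes. The stretches before the start are shown for the alpha subunit genes with the largest responses to IFN-γ and for the catalytic subunit gene Psmb6. They are also shown for the 19S genes Psmd2, a scaffold of the base, and Psmd11, a scaffold of the lid. In the main fit Psmd2 and Psmd11 did not pass the test for IFN-γ in either genotype. Capitals mark a match on either strand to TGANNNNGC (the core of the antioxidant response element bound by NRF factors, in Psma4 and Psmb6), to CCAAT (the NF-Y box, in Psma3) or to CCGGAAG (an ETS motif, in Psmd2 and Psmd11). Psma5 has no match before its start. Matches after the start are not shown but enter the counts given below the stretches. They are TGANNNNGC 8 bases after the start in Psma5 and 23 in Psma4, and CCAAT 13 and 30 bases after it in Psma3. The stretches run 5′ to 3′ on the gene's own strand, all on the plus strand. They end directly before the GENCODE M21 gene begins, or for Psmb6 a few bases further upstream.
Psma5, chr3:108256676-108256925: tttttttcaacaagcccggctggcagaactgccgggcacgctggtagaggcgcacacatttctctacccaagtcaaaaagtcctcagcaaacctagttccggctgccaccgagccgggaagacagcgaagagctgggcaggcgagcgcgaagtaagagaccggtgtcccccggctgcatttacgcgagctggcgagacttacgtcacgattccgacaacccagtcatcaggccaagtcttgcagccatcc
Psma4, chr9:54950609-54950789: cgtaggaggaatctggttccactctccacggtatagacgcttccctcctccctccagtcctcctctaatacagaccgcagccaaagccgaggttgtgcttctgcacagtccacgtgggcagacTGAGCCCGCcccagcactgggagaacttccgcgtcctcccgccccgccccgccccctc
Psma3, chr12:70974373-70974620: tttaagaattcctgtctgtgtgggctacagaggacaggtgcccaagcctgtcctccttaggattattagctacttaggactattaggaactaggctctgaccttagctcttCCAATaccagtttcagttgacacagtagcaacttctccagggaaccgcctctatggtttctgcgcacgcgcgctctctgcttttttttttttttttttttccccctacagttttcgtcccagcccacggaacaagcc
Psmb6, chr11:70525107-70525356: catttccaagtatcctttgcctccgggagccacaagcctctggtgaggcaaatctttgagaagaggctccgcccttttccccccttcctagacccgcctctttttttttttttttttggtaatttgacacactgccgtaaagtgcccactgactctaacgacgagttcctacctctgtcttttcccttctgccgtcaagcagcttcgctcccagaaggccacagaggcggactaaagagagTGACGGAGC
Psmd2, chr16:20651402-20651651: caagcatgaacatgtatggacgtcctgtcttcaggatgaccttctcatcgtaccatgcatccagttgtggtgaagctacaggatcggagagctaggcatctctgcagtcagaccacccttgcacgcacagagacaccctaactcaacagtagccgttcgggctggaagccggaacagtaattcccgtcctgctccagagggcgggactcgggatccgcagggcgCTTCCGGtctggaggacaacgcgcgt
Psmd11, chr11:80428365-80428614: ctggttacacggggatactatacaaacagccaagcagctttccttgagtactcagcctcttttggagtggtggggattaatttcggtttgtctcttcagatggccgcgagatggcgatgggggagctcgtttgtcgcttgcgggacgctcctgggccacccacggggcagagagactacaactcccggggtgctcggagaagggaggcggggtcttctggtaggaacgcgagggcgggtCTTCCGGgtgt
The motif CCGGAAG was in the window of 9 of 17 19S genes (52.9%), of 1 of 11 core genes (9.09%) and of 9.93% of all 27025 genes with a window. TGANNNNGC was in 8 of 11 core genes (72.7%), in 8 of 17 19S genes (47.1%) and in 45.0% of all genes. CCAAT was in 39.3% of the 28 genes and in 41.1% of all. The interferon-stimulated response element (ISRE, searched as GAAA, any 2 bases, GAAA) was in 3 of the 28 genes (10.7%), Psmb3, Psmd4 and Psmd9, and in 3.99% of all genes. No 2 different motifs overlapped in any of these windows, and a match is a run of letters and not a shown binding site.

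The first comparison asked what IFN-γ did to each subunit gene in each genotype. In CKO libraries 15 of the 34 genes were higher with IFN-γ and 0 were lower, where 14.7% of all 16292 genes tested were higher and 11.9% lower, and the median log2 fold change was 0.33 over the 34 genes and 0.00 over all genes. In WT libraries 9 were higher and 2 lower, where 12.4% of all genes were higher and 11.8% lower, and the median of the 34 was 0.18 against 0.00 for all genes. Scaled by library totals without TMM, which shifted the median of all genes by -0.16 in CKO libraries, 7 of the 34 were higher (Psma2, Psma3, Psma4, Psma5, Psma7, Psmb2 and Psmc2) and 1 was lower (Psmd5). The core median was 0.44 in CKO and 0.45 in WT libraries, and the 19S median was 0.14 in CKO and 0.08 in WT libraries; the difference between these classes was not tested. Neutrophil marker sums were 338 to 348 CPM with IFN-γ against 149 to 272 CPM untreated in CKO libraries, and 45.1 to 57.3 CPM with IFN-γ against 36.1 to 42.1 CPM untreated in WT libraries, and their part in the result was not tested. The genotypes share no library in this comparison, and 28 of the 34 genes had the same sign in both (Pearson r 0.86 across genes, which share libraries and are no replicates).

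**Figure D1:**
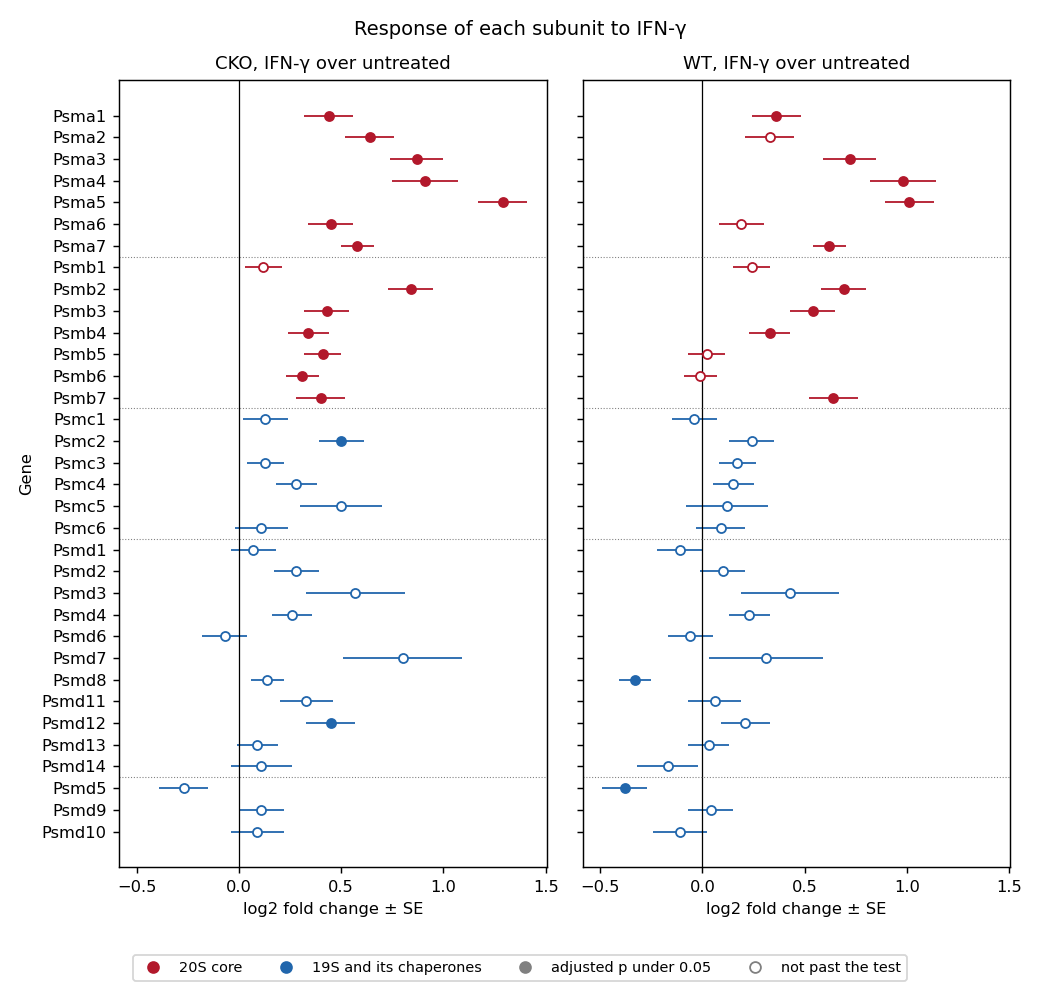
Log2 fold change ± SE of each of the 34 genes with IFN-γ over untreated, from edgeR, in CKO (left) and WT (right) libraries, n = 2 libraries per group; filled points passed an adjusted p of 0.05. The core median is 0.44 in CKO and 0.45 in WT and the 19S median 0.14 in CKO and 0.08 in WT; the classes overlap, with Psma5 at 1.29 in CKO and 1.01 in WT as the highest gene and Psmb6 at -0.01 in WT.

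All 7 alpha genes rose in CKO libraries (median 0.64), where 14.7% of all genes did. In WT libraries 5 of 7 rose (median 0.62), where 12.4% of all genes did. Psma5 was at 138 and 147 CPM with IFN-γ against 56.6 and 60.1 CPM untreated in CKO libraries. In WT libraries it was at 105 and 140.4 CPM with IFN-γ against 58.9 and 63.0 CPM untreated. Every IFN-γ library thus lay above every untreated one, and the 2 WT IFN-γ libraries differed more from each other than the CKO pair did. The log2 fold change was 1.29 ± 0.12 in CKO (adjusted p = 1.02e-05) and 1.01 ± 0.12 in WT (adjusted p = 7.58e-05). Psma3, another alpha ring subunit, was at 164 and 176 CPM with IFN-γ against 93.8 and 91.9 CPM untreated in CKO libraries, and at 151 and 199.7 CPM with IFN-γ against 101 and 111 CPM untreated in WT libraries. Its log2 fold change was 0.87 ± 0.13 in CKO (adjusted p = 0.000267) and 0.72 ± 0.13 in WT (adjusted p = 0.00109). Psma4 was at 144 and 154 CPM with IFN-γ against 79.5 and 79.0 CPM untreated in CKO libraries, and at 135 and 206 CPM with IFN-γ against 78.2 and 94.9 CPM untreated in WT libraries. The WT pair with IFN-γ was again the wider one, and the log2 fold change of Psma4 was 0.91 ± 0.16 in CKO (adjusted p = 0.00138) and 0.98 ± 0.16 in WT (adjusted p = 0.000895). Psma7 was at 116 and 118 CPM with IFN-γ against 80.0 and 76.8 CPM untreated in CKO libraries, and at 133 and 134 CPM with IFN-γ against 88.5 and 85.0 CPM untreated in WT libraries. Both pairs of IFN-γ libraries were close, and Psma7 rose by 0.58 ± 0.08 in CKO (adjusted p = 0.000274) and 0.62 ± 0.08 in WT (adjusted p = 0.000155). Psma1, Psma2 and Psma6 rose by 0.44, 0.64 and 0.45 in CKO libraries. In WT libraries Psma1 rose by 0.36 (adjusted p = 0.0425), and Psma2 at 0.33 and Psma6 at 0.19 did not pass. In WT IFN-γ library 1 these 3 genes were at 109, 112 and 76.4 CPM, against 138, 144 and 94.1 CPM in WT IFN-γ library 2.

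Among the beta subunits, 6 of 7 rose in CKO libraries (median 0.40), against 14.7% of all genes. In WT libraries 4 of 7 did (median 0.33), against 12.4% of all genes. Psmb2, a beta ring subunit without an active site, was at 125 and 132 CPM with IFN-γ against 66.4 and 77.1 CPM untreated in CKO libraries, and at 118 and 141 CPM with IFN-γ against 77.6 and 82.7 CPM untreated in WT libraries. It had the largest log2 fold change of the 7 beta genes in both genotypes, 0.84 ± 0.11 in CKO (adjusted p = 0.000141) and 0.69 ± 0.11 in WT (adjusted p = 0.000636). Psmb3 and Psmb4, also structural, rose by 0.43 and 0.34 in CKO and by 0.54 and 0.33 in WT. Psmb1 passed in neither genotype, with log2 fold changes of 0.12 in CKO and 0.24 in WT.

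Of the 3 catalytic subunits, all passed in CKO libraries and Psmb7 passed in WT libraries. Psmb5, whose product has the chymotrypsin-like site, was at 73.6 and 75.7 CPM with IFN-γ against 54.6 and 57.5 CPM untreated in CKO libraries, and at 78.2 and 74.5 CPM with IFN-γ against 76.2 and 74.2 CPM untreated in WT libraries. The IFN-γ libraries of both genotypes and the untreated WT libraries held about the same level, and untreated CKO libraries the lowest. Its log2 fold change was 0.41 ± 0.09 in CKO (adjusted p = 0.00588) and 0.02 ± 0.09 in WT, where it did not pass. Psmb6, with the caspase-like site, was at 161 and 165 CPM with IFN-γ against 132 and 132 CPM untreated in CKO libraries, and at 165 and 169 CPM with IFN-γ against 171 and 164 CPM untreated in WT libraries. It gave 0.31 ± 0.08 in CKO (adjusted p = 0.0127) and -0.01 ± 0.08 in WT, where the libraries overlapped. Psmb7, with the trypsin-like site, was at 100.2 and 100.0 CPM with IFN-γ against 73.1 and 78.8 CPM untreated in CKO libraries, and at 129 and 159 CPM with IFN-γ against 90.3 and 94.5 CPM untreated in WT libraries. Here the change was 0.40 ± 0.12 in CKO (adjusted p = 0.0270) and 0.64 ± 0.12 in WT (adjusted p = 0.00172). A share of 11.8% of the exon length of Psmb7 overlaps exons of Nek6 on the other strand, and 12.1% of that of Psmb5 overlaps Mir686, and the strand setting of the counting is not given. None of the 3 genes passed the test of the difference in response between genotypes (0.39 ± 0.13, adjusted p = 0.185 for Psmb5, 0.31 ± 0.11, adjusted p = 0.224 for Psmb6, and -0.24 ± 0.17, adjusted p = 0.638 for Psmb7).

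**Figure D2:**
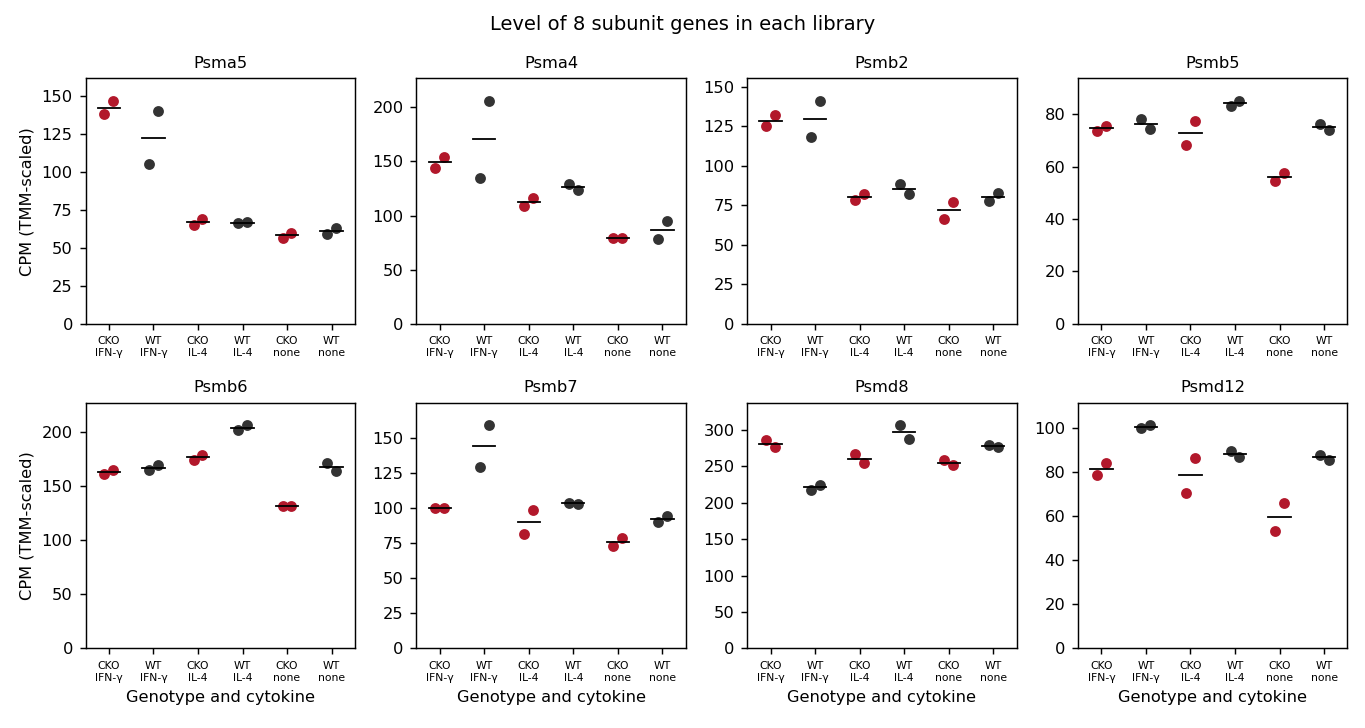
Levels in TMM-scaled CPM of 8 subunit genes in each of the 12 libraries, by genotype and cytokine (none, untreated; red, CKO; grey, WT; bar, mean of 2 libraries; each axis starts at 0). Psma5, Psma4 and Psmb2 are highest in the 4 IFN-γ libraries, and Psmb5 and Psmb6 are lowest in the 2 untreated CKO libraries.

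In the regulatory particle, 2 of 20 genes passed upward in CKO libraries, where 14.7% of all genes rose, and 18 had a positive value. In WT libraries none passed upward, where 12.4% of all genes rose, and 2 fell, where 11.8% of all genes fell. Psmc2, an ATPase of the unfolding ring, was at 99.3 and 98.6 CPM with IFN-γ against 60.9 and 79.0 CPM untreated in CKO libraries, a log2 fold change of 0.50 ± 0.11 (adjusted p = 0.00634), against 0.24 ± 0.11 in WT, which did not pass. Psmd12, a scaffold subunit of the lid, was at 78.4 and 83.9 CPM with IFN-γ against 53.1 and 65.9 CPM untreated in CKO libraries (0.45 ± 0.12, adjusted p = 0.0172), and at 99.7 and 101 CPM with IFN-γ against 87.6 and 85.4 CPM untreated in WT libraries (0.21 ± 0.12, not passed). In both genes the untreated CKO libraries lay further apart than the CKO libraries with IFN-γ. Psmd7 and Psmd3, lid subunits with log2 fold changes of 0.80 ± 0.29 and 0.57 ± 0.24 in CKO libraries, did not pass, and their untreated CKO libraries read 29.6 and 60.5 CPM for Psmd7 and 35.7 and 68.8 CPM for Psmd3. Psmd14, the deubiquitinase of the lid, gave 0.11 in CKO and -0.17 in WT, and Psmd4, a ubiquitin receptor, 0.26 in CKO and 0.23 in WT, none of them past the test.

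The falls in WT libraries were those of Psmd8 and Psmd5. Psmd8, a lid subunit, was at 218 and 224 CPM with IFN-γ against 279 and 276 CPM untreated in WT libraries, a log2 fold change of -0.33 ± 0.08 (adjusted p = 0.0123). In CKO libraries it was at 286 and 276 CPM with IFN-γ against 258 and 251 CPM untreated, 0.14 ± 0.08, which did not pass. The 2 genotypes thus had opposite signs with no overlap in either, and the difference in response was 0.47 ± 0.12 (adjusted p = 0.0597, which did not pass; it passed in DESeq2 and in edgeR at a mean CPM of at least 5). Psmd5, an assembly chaperone of the base, was at 40.0 and 40.7 CPM with IFN-γ against 54.0 and 50.7 CPM untreated in WT libraries (-0.38 ± 0.11, adjusted p = 0.0325), and at 32.9 and 38.1 CPM with IFN-γ against 43.1 and 42.3 CPM untreated in CKO libraries (-0.27 ± 0.12, not passed).  Psmd9 and Psmd10, the other chaperones here, gave 0.11 and 0.09 in CKO and 0.04 and -0.11 in WT.

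With 2 libraries a group, several calls were lost when 1 library was left out. Psma2, Psma3, Psma4, Psma5, Psma7 and Psmb2 in CKO and Psma3, Psma4, Psma5, Psma7, Psmb2, Psmb3 and Psmb7 in WT passed when each of the 4 libraries compared was left out in turn. Without CKO IFN-γ library 1 or without CKO IFN-γ library 2, 7 of the 15 CKO calls remained, and Psma1, Psma6, Psmb3, Psmb4, Psmb6, Psmb7 and Psmd12 were lost in both fits, Psmc2 in the first and Psmb5 in the second (adjusted p = 0.0508). Without untreated CKO library 1, Psmb4, Psmb7 and Psmd12 were lost, and without untreated CKO library 2, Psma1 and Psmb4. In WT, Psmd5 was lost in all 4 fits, Psmd8 in all but the one without IFN-γ library 2, Psma1 in all but the one without IFN-γ library 1, and Psmb4 in all but the one without untreated library 1. Some lost calls kept their fold change over the 4 fits, which have fewer degrees of freedom: in CKO, Psmb6 ran from 0.29 to 0.30, Psma6 from 0.42 to 0.46 and Psmb3 from 0.40 to 0.44, and in WT Psmd8 ran from -0.35 to -0.31. Others moved with the library left out, as Psmd12 from 0.28 to 0.60 in CKO and Psma1 from 0.18 to 0.52 in WT. In a fit of only the groups compared, Psmb4, Psmb6, Psmc2 and Psmd12 were lost in CKO, and Psma1 and Psmb4 in WT.

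**Figure D3:**
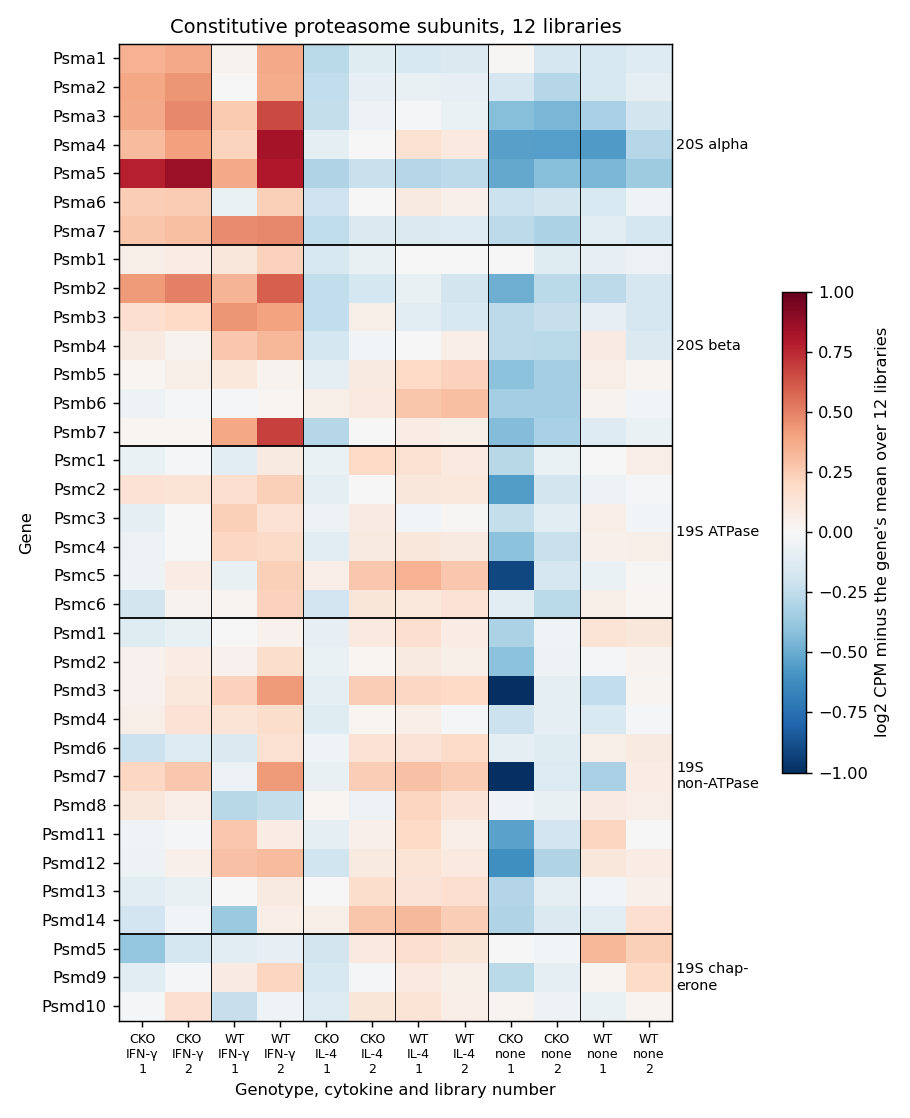
Log2 CPM of each of the 34 genes minus its own mean over the 12 libraries, with genes ordered by class and libraries by group (none, untreated); red is above and blue below the gene's mean, and the scale ends at 1 in each direction. The red block marks core genes in the 4 IFN-γ libraries, and the dark blue cells in untreated CKO library 1 are Psmc5, Psmd3 and Psmd7.

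Summed over the 14 core genes, the level was 1681 and 1733 CPM in CKO and 1624 and 1925 CPM in WT libraries with IFN-γ, 1247 and 1370 CPM in CKO and 1429 and 1421 CPM in WT libraries with IL-4, and 1148 and 1137 CPM in untreated CKO and 1268 and 1291 CPM in untreated WT libraries. Summed over the 20 genes of the 19S group, it was 1996 and 2075 CPM in CKO and 2049 and 2208 CPM in WT libraries with IFN-γ, 1937 and 2158 CPM in CKO and 2252 and 2189 CPM in WT libraries with IL-4, and 1604 and 1875 CPM in untreated CKO and 2052 and 2104 CPM in untreated WT libraries. Between IFN-γ and untreated libraries, the 19S sums overlapped in WT and not in CKO, and the core sums overlapped in neither genotype. The ratio of core to 19S sums, which does not depend on the library scaling, was 0.842 and 0.835 in CKO and 0.792 and 0.872 in WT libraries with IFN-γ. It was 0.644 and 0.635 in CKO and 0.634 and 0.649 in WT libraries with IL-4. Untreated libraries had 0.716 and 0.607 for CKO and 0.618 and 0.614 for WT. All 4 IFN-γ libraries therefore lay above the other 8, and the highest of those 8 was untreated CKO library 1. The ratio was not tested.

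**Figure D4:**
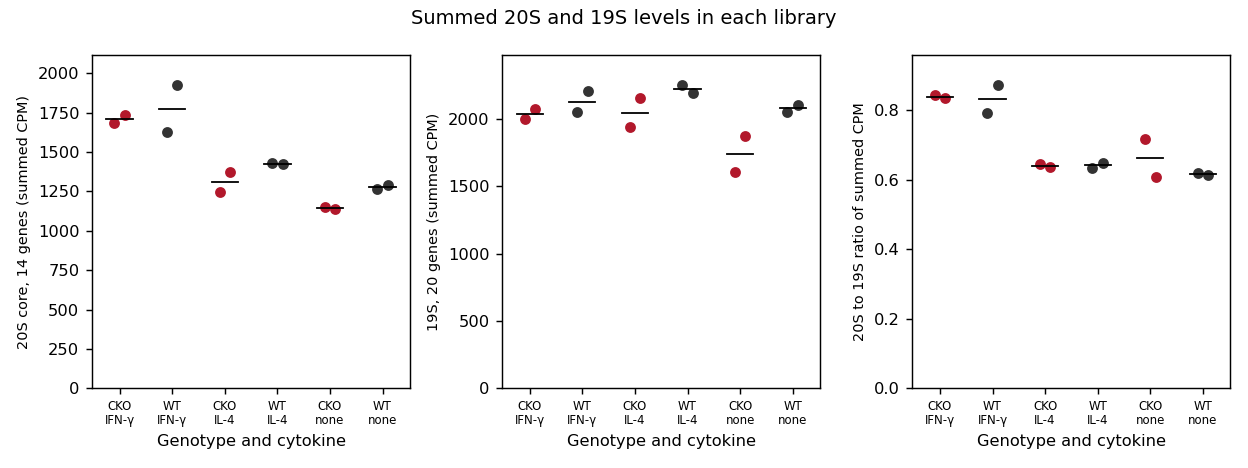
Summed CPM of the 14 core genes (left), summed CPM of the 20 genes of the 19S group (middle) and their ratio (right) in each library, by genotype and cytokine (none, untreated; red, CKO; grey, WT; bar, mean of 2 libraries). The ratio is 0.792 to 0.872 in the 4 IFN-γ libraries and 0.607 to 0.716 in the other 8.

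The inducible subunits showed how much of each catalytic position's mRNA was of the constitutive kind. Psmb8, which replaces Psmb5, was at 576 and 582 CPM with IFN-γ against 52.8 and 48.2 CPM untreated in CKO libraries, and at 437 and 437 CPM with IFN-γ against 74.1 and 71.1 CPM untreated in WT libraries. Its log2 fold change was 3.52 ± 0.09 in CKO (adjusted p = 1.83e-10) and 2.59 ± 0.09 in WT (adjusted p = 1.79e-09). Psmb9, which replaces Psmb6, rose by 2.90 in CKO and 3.06 in WT, and Psmb10, which replaces Psmb7, by 3.69 in CKO and 3.17 in WT. Per kilobase of exon, Psmb8 made up 67.6% and 67.2% of the Psmb8 and Psmb5 counts in CKO and 59.8% and 60.9% in WT libraries with IFN-γ, and 16.5% to 20.5% in all other libraries. Psmb9 made up 31.4% and 30.7% of its pair with Psmb6 in CKO and 25.8% and 25.6% in WT libraries with IFN-γ. Untreated CKO libraries had 7.11% and 6.81% for Psmb9 and untreated WT libraries 3.81% and 4.14%, so Psmb6 stayed the more abundant mRNA of that pair in every library. Psmb10 made up 85.6% and 85.9% of its pair with Psmb7 in CKO and 79.1% and 75.3% in WT libraries with IFN-γ. With IL-4 the Psmb10 share was 67.8% and 56.6% in CKO and 60.2% and 59.8% in WT libraries, against 41.7% and 34.5% in untreated CKO and 39.6% and 34.3% in untreated WT libraries. Psmb10 alone of the 3 inducible genes rose with IL-4, by 1.68 in CKO (adjusted p = 1.36e-05) and 1.51 in WT (adjusted p = 3.64e-05). These shares depend on the length used: with the median transcript length the mean Psmb8 share over the IFN-γ libraries was 75.6%. The Psmb10 share was then 57.3% to 72.9% with IFN-γ, 36.6% to 48.1% with IL-4 and 18.7% to 23.9% untreated, so with IL-4 Psmb10 was the more abundant of its pair by exon length and the less abundant by transcript length. The labels name an RNA Exome kit, whose capture may differ between genes, which was not tested.

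**Figure D5:**
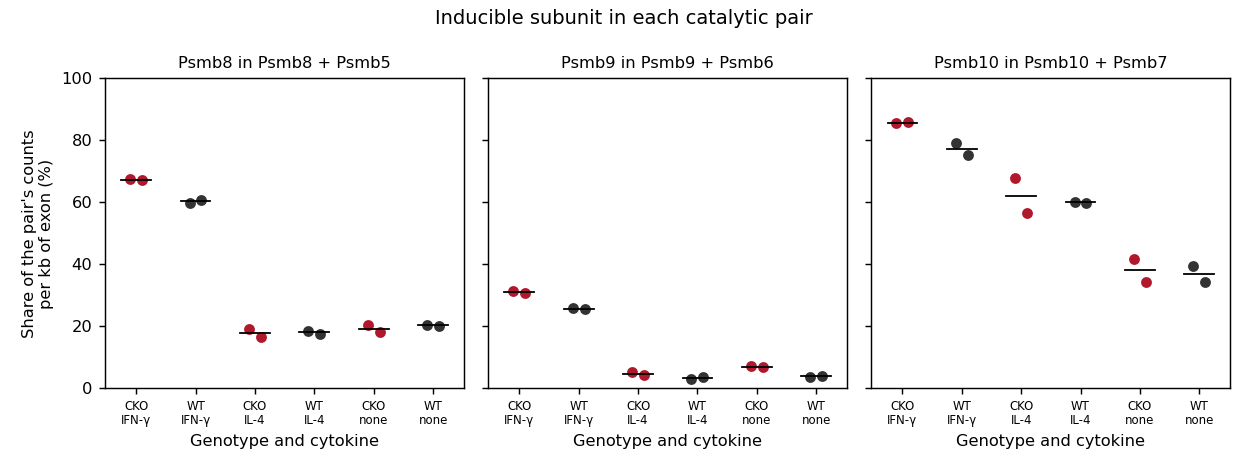
Share of the inducible gene in the counts per kilobase of exon of each catalytic pair, in percent, in each library by genotype and cytokine (none, untreated; red, CKO; grey, WT; bar, mean of 2 libraries). The Psmb8 share is 59.8% to 67.6% in IFN-γ libraries and 16.5% to 20.5% elsewhere, and the Psmb10 share is also higher with IL-4 than untreated.

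Around the core, 4 of 5 genes of the alternative caps and the inhibitor rose with IFN-γ in each genotype. Of all genes, 14.7% rose in CKO libraries and 12.4% in WT libraries. Psme1 and Psme2, which encode the PA28 cap, rose by 2.41 and 2.78 in CKO and by 2.13 and 2.07 in WT. Psmf1, the inhibitor PI31, rose by 0.62 in CKO and 0.41 in WT; the WT call passed in 1 of the 4 fits without 1 library, that without WT IFN-γ library 1 (0.31 to 0.49 over the 4). Of the 11 tested assembly and associated factors, 2 rose in each genotype: Pomp, the chaperone of core assembly, by 1.28 ± 0.14 in CKO (adjusted p = 2.18e-05) and 1.17 ± 0.14 in WT (adjusted p = 4.71e-05), and Psmg4, a chaperone of alpha ring assembly, by 0.51 in CKO and 0.74 in WT. The CKO call of Psmg4 passed in 1 of the 4 fits, that without CKO IFN-γ library 2 (0.37 to 0.63 over the 4). Of the 4 tested regulators of proteasome gene transcription, none passed in CKO, and in WT Nfe2l2, the gene of NRF2, fell by 0.51. The testis- and thymus-restricted subunit genes Psma8 and Psmb11 did not pass.

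With IL-4, 6 of the 34 genes were higher and 0 lower in CKO libraries, where 11.2% of all genes were higher and 11.3% lower. In WT libraries 2 were higher and 0 lower, where 6.64% were higher and 5.59% lower. The median log2 fold change of the 34 was 0.19 in CKO and 0.09 in WT, against 0.00 for all genes in both. Psma4 and Psmb6 passed in both genotypes. Psmb6 was at 174 and 179 CPM with IL-4 against 132 and 132 CPM untreated in CKO libraries, and at 202 and 206 CPM with IL-4 against 171 and 164 CPM untreated in WT libraries. It rose by 0.42 ± 0.08 in CKO (adjusted p = 0.00322), a call that held without each of the 4 libraries, and by 0.28 ± 0.08 in WT (adjusted p = 0.0357), a call that was lost when any 1 of the 4 was left out. Psma4 was at 109 and 116 CPM with IL-4 against 79.5 and 79.0 CPM untreated in CKO libraries (0.51 ± 0.16, adjusted p = 0.0450). In WT libraries it was at 129 and 124 CPM with IL-4 against 78.2 and 94.9 CPM untreated (0.55 ± 0.16, adjusted p = 0.0493). Both values lie next to the threshold, and each call was lost when any 1 of its 4 libraries was left out. Psmb5 was at 68.4 and 77.5 CPM with IL-4 against 54.6 and 57.5 CPM untreated in CKO libraries (0.38 ± 0.09, adjusted p = 0.0131), and at 83.3 and 85.2 CPM with IL-4 against 76.2 and 74.2 CPM untreated in WT libraries, which did not pass. Psmc5, an ATPase of the base, was at 65.3 and 75.1 CPM with IL-4 against 33.1 and 55.6 CPM untreated in CKO libraries (0.66 ± 0.20, adjusted p = 0.0334). Psmc4, another ATPase, and Psmd12 rose by 0.31 and 0.40 in CKO libraries. Without untreated CKO library 1, or without CKO IL-4 library 2, all the CKO calls except that of Psmb6 were lost. Over the 4 fits without 1 of the libraries compared, Psmb6 ran from 0.40 to 0.41 in CKO and Psmb5 from 0.29 to 0.44. Psma4 ran from 0.46 to 0.52, Psmc4 from 0.21 to 0.39, Psmc5 from 0.33 to 1.07 and Psmd12 from 0.24 to 0.55. In a fit of only the groups compared, none of the 6 CKO calls passed, that of Psmb6 included. Nfe2l2 fell with IL-4, by 0.70 in CKO (adjusted p = 0.000685) and 0.59 in WT (adjusted p = 0.00329), where the call was lost without WT IL-4 library 1 (adjusted p = 0.0520). The 2 genotypes share no library, and 30 of the 34 genes had the same sign in both (Pearson r 0.74 across genes); untreated libraries are shared with the IFN-γ comparisons.

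Between genotypes, untreated CKO libraries had 0 of the 34 genes higher and 5 lower than untreated WT libraries, where 8.6% of all genes were higher and 9.37% lower, and 31 of the 34 had a negative value with a median of -0.22. The 5 were Psmb5, Psmb6, Psmc4, Psmd11 and Psmd12. Psmb5 was at 54.6 and 57.5 CPM in untreated CKO against 76.2 and 74.2 CPM in untreated WT libraries (-0.42 ± 0.09, adjusted p = 0.0111). Psmb6 was at 132 and 132 CPM in untreated CKO against 171 and 164 CPM in untreated WT libraries (-0.34 ± 0.08, adjusted p = 0.0139). Psmd12 was at 53.1 and 65.9 CPM in untreated CKO against 87.6 and 85.4 CPM in untreated WT libraries (-0.54 ± 0.12, adjusted p = 0.0128). For the catalytic pair both untreated CKO libraries were close and low, whereas for Psmd12 library 1 was the lower one. Psmc4 gave -0.37 and Psmd11, a lid subunit, -0.46. All 5 calls were lost without untreated CKO library 1, or without either untreated WT library, and were kept without untreated CKO library 2. Over these 4 fits Psmb5 ran from -0.45 to -0.38, Psmb6 from -0.38 to -0.31 and Psmd12 from -0.68 to -0.38. In a fit of only the groups compared, which has fewer degrees of freedom, none of the 5 passed. Beside these values stand the neutrophil marker sums, higher in both untreated CKO libraries than in both untreated WT libraries, and the low mitochondrial share of untreated CKO library 1, and their part in the result was not tested.

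With IFN-γ, CKO libraries had 1 of the 34 genes higher and 1 lower than WT libraries, where 10.4% of all genes were higher and 8.01% lower. Psmd8 was at 286 and 276 CPM in CKO against 218 and 224 CPM in WT libraries (0.35 ± 0.08, adjusted p = 0.0134). Psmb7 was at 100.2 and 100.0 CPM in CKO against 129 and 159 CPM in WT libraries (-0.53 ± 0.12, adjusted p = 0.0100). Both calls were lost without CKO IFN-γ library 1 and without CKO IFN-γ library 2, and Psmb7 fell short without WT IFN-γ library 2 and Psmd8 without WT IFN-γ library 1. Psmc3, an ATPase of the base, was at 138 and 148 CPM in CKO against 174 and 163 CPM in WT libraries and did not pass. With IL-4, 0 of the 34 genes passed between CKO and WT libraries by edgeR, where 2.96% of all genes did, and 0 by DESeq2. An unadjusted p under 0.05 was reached by 3 of the 34, against 2304 of all 16292 genes tested. Those were Psmb6 (174 and 179 CPM in CKO against 202 and 206 CPM in WT), Psmd8 (267 and 254 CPM in CKO against 306 and 288 CPM in WT) and Psmb5 (68.4 and 77.5 CPM in CKO against 83.3 and 85.2 CPM in WT), with log2 fold changes of -0.21, -0.19 and -0.21. As in untreated libraries, most values were negative, 31 of 34 with a median of -0.12 against -0.01 for all genes.

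The test of a genotype difference in the response passed for 0 of the 34 genes with IFN-γ, where 2.72% of all genes passed, and for 0 with IL-4, where 0.0368% did. By unadjusted p under 0.05 these counts were 3 and 0, against 2127 and 981 of all 16292 genes tested. DESeq2 passed 1 with IFN-γ, Psmd8, as did edgeR at a mean CPM of at least 5, and 0 with IL-4. With IFN-γ the smallest unadjusted p after that of Psmd8 were those of Psmb5 and Psmb6, whose untreated CKO levels were low. With IL-4, 5 genes tied at an adjusted p of 0.773, namely Psmd12 at 0.37 ± 0.17, Psmc4 at 0.26 ± 0.14, Psmd11 at 0.31 ± 0.18, Psmb5 at 0.22 ± 0.13 and Psmc3 at 0.21 ± 0.13. Psmd11 was at 65.6 and 72.6 CPM with IL-4 against 48.3 and 61.2 CPM untreated in CKO libraries, and at 80.1 and 73.1 CPM with IL-4 against 81.2 and 69.8 CPM untreated in WT libraries. Psmc3 was at 142 and 156 CPM with IL-4 against 125 and 136 CPM untreated in CKO libraries, and at 145 and 149 CPM with IL-4 against 154 and 145 CPM untreated in WT libraries. For both genes the CKO libraries with IL-4 lay above the untreated ones, and the WT libraries overlapped. A miss of the threshold does not show that the genotypes responded alike.

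Levels were also set per kilobase of median transcript length. In WT IFN-γ libraries the core ran from Psma2 at 43.9 to Psmb6 at 209 CPM per kilobase, 4.76-fold, and in untreated WT libraries from Psma2 at 34.9 to Psmb6 at 209.7, 6.01-fold. In CKO libraries the same genes were lowest and highest, with 3.99-fold with IFN-γ and 5.05-fold untreated. The 19S group ran from Psmd5 at 9.17 to Psmd8 at 145 CPM per kilobase in WT IFN-γ libraries and from Psmd9 at 10.2 to Psmd8 at 182 in untreated WT libraries. Its low end was held by the chaperones Psmd5, Psmd9 and Psmd10, whose products are not part of the finished particle. Without these 3, the 19S genes spanned 5.99-fold with IFN-γ and 6.87-fold untreated in CKO libraries, and 4.12-fold with IFN-γ and 5.72-fold untreated in WT libraries, so the 19S span was wider than that of the core in these CKO groups and narrower in these WT groups. The median of the 7 alpha genes was 113 CPM per kilobase in CKO libraries with IFN-γ and 68.1 in untreated CKO libraries, and 99.2 in WT libraries with IFN-γ and 74.3 in untreated WT libraries. For the 6 ATPases the median was 58.5 with IFN-γ and 45.0 untreated in CKO libraries, and 65.2 with IFN-γ and 57.3 untreated in WT libraries. Annotated lengths stand in for the transcripts made in these cells, so the order of the levels is approximate.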

How the data were processed

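RNA-seq libraries were prepared with the Illumina RNA Exome kit, per the labels. The values in the deposited table are raw read counts for each gene, made by the authors, whose tools were HTSeq 0.6.1, TopHat2 2.0.13, Picard 1.97 and CASAVA 1.8.2, per the submitters' processing notes. Those notes list mm10 and GRCh38 and not what each was used for. Not given in the sources used here are the annotation release, the strand setting and the handling of reads shared with copies of a gene. Genes were named by the symbols in the deposited file, and positions and lengths came from GENCODE M21 (GRCm38), where all 34 identifiers matched.

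Counts of 16292 of 48440 genes, among them all 34 members, passed filterByExpr of edgeR 4.0.16 (R 4.3.3). Levels are TMM-scaled CPM. The test was edgeR's quasi-likelihood test with robust dispersions, fitted once to all 12 libraries with a mean for each of the 6 groups (6 residual degrees of freedom), in 9 comparisons, with Benjamini-Hochberg adjustment over all genes tested and a threshold of 0.05. The SE of a log2 fold change is approximate, taken as its size divided by the root of its F value. The lowest member count in a library was 376, for Psmd10, where counting error can be as large as the spread within a pair of libraries. Shares of a pair are counts per kilobase of exon, with no test.

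Alternatives were DESeq2 1.42.0, other scalings and filters, fits of only the groups compared, replicate blocks, and fits without 1 library. A fit without the 3 libraries with most Gm42418 counts, and shares by transcript length, were added after seeing the data. Both tools' steps were first tested on simulated counts. The members and gene lists were chosen with earlier results of these data known. Library values are given for the 3 catalytic subunits, for the 3 members with the smallest adjusted p in each comparison (5 tied for the IL-4 difference in response) and for called members that went against the median; Psma4, Psmc2 and the WT libraries of Psma1, Psma2 and Psma6 with IFN-γ, and the lid subunits with wide pairs, were picked after their values were seen. From other lists, the inducible subunits and at most 3 genes a list are named. One other list and one motif are not reported here.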

Additional observations from a re-analysis of the deposited data

Results flagged for a closer look

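Among the genes around the core, 2 that are not constitutive subunits differed between genotypes in their response to IFN-γ by edgeR's test of the difference. Psmb8, the inducible counterpart of Psmb5, had a difference of 0.93 ± 0.12 on the log2 scale (adjusted p = 0.00232): it was at 576 and 582 CPM with IFN-γ against 52.8 and 48.2 CPM untreated in CKO libraries, and at 437 and 437 CPM with IFN-γ against 74.1 and 71.1 CPM untreated in WT libraries. It passed in all 8 fits without 1 library. Psme2, a subunit gene of the PA28 cap, had a difference of 0.71 ± 0.14 (adjusted p = 0.0180), with 387 and 393 CPM with IFN-γ against 54.5 and 58.9 CPM untreated in CKO libraries, and 246 and 287 CPM with IFN-γ against 63.0 and 64.0 CPM untreated in WT libraries. Psme2 lost its call in 6 of those 8 fits. The exon length of Psmb8 overlaps an antisense gene by 14.7%, and its part in the result was not tested.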

How the results depend on the processing

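The 41 member calls over the comparisons all passed in DESeq2, with DESeq2 size factors in edgeR and with the replicate block, and no member call changed direction under any alternative run; 37 passed with no filter on low counts, 40 at a mean CPM of at least 5, 25 with library totals, 24 with only the groups compared, 27 without the 3 libraries rich in Gm42418, and 14 with each library of the groups compared left out in turn. For CKO with IFN-γ over untreated, the members called higher numbered 7 with library totals and 7 to 19 without 1 library, and those called lower 1 with library totals and 1 with the block within genotype. For WT with IFN-γ, the members called lower numbered 0 to 2 without 1 library and 0 without the 3 libraries. For CKO with IL-4, the members called higher numbered 3 with library totals, 0 with only the groups compared, 11 with the block, 13 with the block within genotype, 1 to 12 without 1 library and 2 without the 3 libraries. For WT with IL-4 they numbered 0 with library totals, 1 with no filter, 1 at a mean CPM of 5 and 0 to 1 without 1 library. For untreated CKO against WT, the members called lower numbered 8 with no filter, 0 with only the groups compared, 8 with the block, 0 to 11 without 1 library and 0 without the 3 libraries. For CKO against WT with IFN-γ, 0 to 3 were higher without 1 library, and 2 were lower with only the groups compared, 0 to 4 without 1 library and 2 without the 3 libraries. For the IFN-γ interaction, 1 was called by DESeq2, 1 at a mean CPM of 5, 1 with the block, 1 with the block within genotype and 0 to 2 without 1 library; apart from the fits without 1 library, this was Psmd8. The cause was not tested, except that fits of fewer libraries have fewer degrees of freedom. The share of all genes called moved too. For CKO with IL-4, 11.2% of all genes were higher in the main fit. That share was 4.29% with only the groups compared and 17.1% with the block within genotype. These counts therefore do not separate a change in the 34 genes from one in all genes. The titles join each library number to the genotype, as in WT1 and CKO1, and repeat it across the treatments without a stated meaning. Same-numbered libraries deviated together with r over 0.1 in 14 of 15 pairs of groups (-0.049 to 0.725, and 0.106 to 0.725 within a genotype). These are hints only, since no label states a pairing. With the block 21 members rose in CKO with IFN-γ (17.4% of all genes), and with the block within genotype 22 did (19.5%). The calls gained were all of the 19S group. Both blocks added Psmc4, Psmc5, Psmd2, Psmd3, Psmd4 and Psmd7, and the block within genotype also added Psmd11 and, as lower, Psmd5. As shares of plain counts and by transcript length, Psmb8 made up 86.8% and 75.6% with IFN-γ, 45.3% and 27.9% with IL-4 and 48.3% and 30.3% untreated, and Psmb10 69.0% and 66.3%, 44.0% and 41.1%, and 23.1% and 20.9%. Psmb9 made up 43.6%, 7.68% and 10.1% of plain counts with IFN-γ, with IL-4 and untreated.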
